A study of Mus musculus with 11 samples.

Results

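The genes described here encode proteins that release fatty acids from lipoproteins or control that step, carry them into cells and bind them inside, read in gonadal white adipose tissue (WAT). They are Lpl, Gpihbp1, Angptl4, Cd36, Slc27a1, Slc27a4, Acsl1, Fabp4, Fabp5 and Fabp3, chosen by symbol for their role in uptake and binding. All 10 were among the 12787 genes of the table. RNA was sequenced from the gonadal WAT of 11 male C57BL/6J mice, 1 library per mouse, all fed a 60% high fat diet (HFD) for 20 weeks. The HFD control group (n = 5) received vehicle, and 1 further vehicle library had been left out by the authors for quality. The HFD + IMC group (n = 6) received iodomethylcholine (IMC) in the same diet at 0.06% w/w. IMC is a small molecule that inhibits the gut microbial lyase releasing trimethylamine from choline. No lean group and no IMC group on another diet entered these data, so each difference is between treated and untreated mice on the HFD. The age of the sequenced mice, the weeks with IMC among those on the HFD and the cage of each mouse were not given in the sources used here, and no batch was named. Mice of the study were housed in groups of 5 per cage, with several cages per condition. The mice are separate animals, numbered here within each group only as names.

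Fat cells obtain fatty acids mainly from triglyceride carried in blood lipoproteins. Lipoprotein lipase (LPL) is made by adipocytes, moved across the capillary wall by GPIHBP1 and held there, where it cuts triglyceride, while ANGPTL4 inactivates it. The fatty acids set free pass the plasma membrane with the help of CD36 and of fatty acid transport proteins of the SLC27 family, are trapped by coupling to coenzyme A through acyl-CoA synthetases such as ACSL1, and are held in the cytosol by fatty acid binding proteins (FABPs). FABP4 is the abundant FABP of adipocytes, FABP5 is shared by many cell types including macrophages, and FABP3 is best known from heart and skeletal muscle.

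Acsl1, Fabp4, Fabp3, Angptl4 and Gpihbp1 passed the test between the groups (limma, Benjamini-Hochberg adjusted p under 0.05 over all genes), each with the higher level under IMC. These were 5 of the 10 genes, and the table as a whole was called nearly as often, with 5236 of 12787 genes (40.9%) past the threshold. By limma 0 of the 10 genes were called lower, and an unadjusted p under 0.05 also gave 5 genes, all higher. Lpl, Cd36, Slc27a1, Slc27a4 and Fabp5 did not pass. Among all genes called, 48.8% were higher with IMC. The 2 groups did not overlap for 5 of the 10 genes, with IMC-treated mice higher in each of them, against 12.5% of all genes. For 1 of these 5, Lpl, the separation depended on the scaling. The median log2 difference between the groups was 0.24 for the 10 genes and -0.03 for all genes.

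The 10 genes differed widely in abundance. They took between 2.33% and 2.54% of the reads on listed genes in HFD control mice and between 2.78% and 3.11% in IMC-treated mice, so the groups did not overlap. Fabp4 had the largest part in this rise, with a mean share of 0.497% in controls and 0.796% in treated mice. The mean share of Cd36 was 0.677% and 0.676%. Lpl was the most abundant of all 12787 genes in log2 CPM, the logarithm of reads relative to the scaled library size (CPM). Cd36 was the 6th and Fabp4 the 8th most abundant, and Fabp3 was 12697th. Once levels were divided by the length of the gene's merged exons, Fabp4 stood first with a mean of 12.80 log2 CPM per kb, followed by Lpl at 11.34 and Cd36 at 10.90. Acsl1 followed at 8.67, Angptl4 at 7.98, Slc27a1 at 7.22, Fabp5 at 6.96, Gpihbp1 at 4.66, Slc27a4 at 3.97 and Fabp3 at 0.43. Each neighbour in this order stood above the next in all 11 mice, except that Slc27a1 was above Fabp5 in 10 of 11 mice, and its mean lead of 0.26 log2 units ranged from -0.30 to 0.59.

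**Figure D1:**
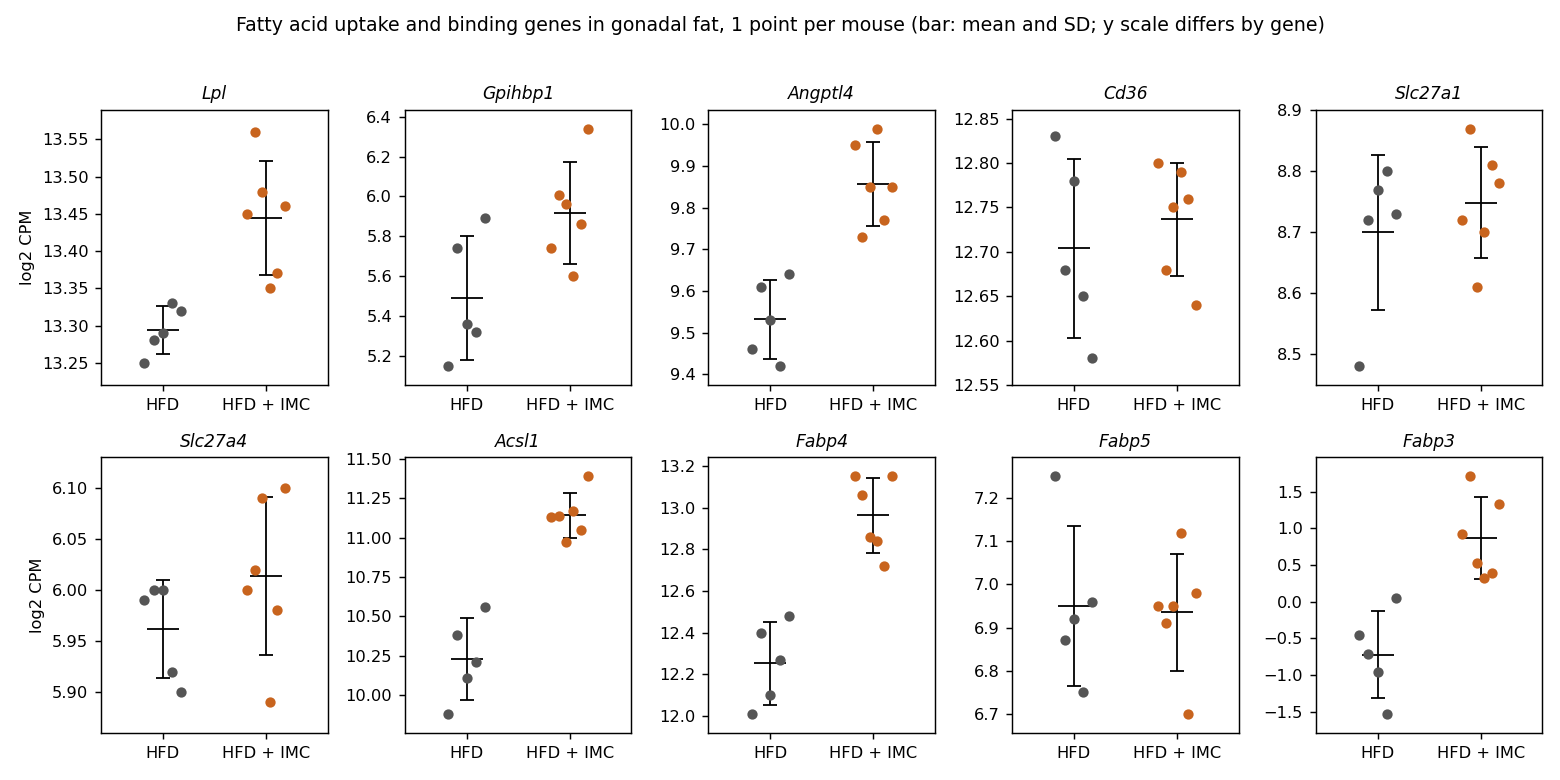
The plot of levels by mouse shows log2 CPM (y axis, a separate scale for each gene) of the 10 genes in HFD control mice (grey, n = 5) and IMC-treated mice (orange, n = 6), with 1 point per mouse and the mean and SD as bars. The groups are separate for Lpl, Angptl4, Acsl1, Fabp4 and Fabp3 and overlap for Gpihbp1, Cd36, Slc27a1, Slc27a4 and Fabp5.

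Lipolysis at the capillary wall was taken first. Lpl (gene ID 16956, chr8:68880555-68906932, GRCm38) stood at 13.25, 13.28, 13.29, 13.33 and 13.32 log2 CPM in HFD control mice 1 to 5. In IMC-treated mice the lowest, median and highest values were 13.35, 13.45 and 13.56 log2 CPM. Every IMC-treated mouse was therefore above every HFD control mouse, but the gap between the groups was only 0.02 log2 units. As a share of all reads on listed genes, without the upper-quartile scaling, Lpl overlapped between the groups, at 0.968% to 1.05% in controls and 1.03% to 1.21% in treated mice. The difference was 0.15 log2 units (SE 0.12, 95% interval -0.10 to 0.40), a ratio of 1.11, and it was not called by limma (adjusted p = 0.315), while a two-sided exact permutation test of this gene alone gave p = 0.00649, unadjusted. The pooled SD of Lpl between mice was 0.06 log2 units, against a median of 0.15 in the 200 genes nearest to it in level. Limma's trend draws each gene's variance towards that of genes at its level, and without the trend Lpl was called with the same difference of 0.15 (adjusted p = 0.0242).

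Angptl4 (gene ID 57875, chr17:33774900-33781575), which encodes the secreted inhibitor of LPL, was measured at 9.46, 9.61, 9.53, 9.42 and 9.64 log2 CPM in HFD control mice. Among IMC-treated mice its values ran from 9.73 through a median of 9.85 to 9.99 log2 CPM. All treated mice lay above all controls, by at least 0.09 log2 units. Angptl4 rose by 0.33 log2 units (SE 0.06), a ratio of 1.25 (95% interval 1.14 to 1.38, limma adjusted p = 0.00164, exact permutation p = 0.00216, which is the smallest p that 5 against 6 mice can give). Angptl4 remained called whichever single mouse was left out.

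Gpihbp1 (gene ID 68453, chr15:75596630-75598213), the endothelial anchor of LPL, was read at 5.15, 5.74, 5.36, 5.32 and 5.89 log2 CPM in the controls. With IMC the lowest value was 5.60, the median 5.91 and the highest 6.34 log2 CPM. The groups overlapped, and 3 of the 6 treated mice were above every control. Gpihbp1 was higher by 0.43 log2 units (SE 0.14), a ratio of 1.34 (95% interval 1.08 to 1.67, limma adjusted p = 0.0304, two-sided exact permutation p = 0.0455). This call rested on single mice, since it was lost without HFD mouse 1, 3 or 4 or without IMC mouse 2, 3 or 6, with adjusted p between 0.00969 and 0.0836 over the 11 fits and a difference between 0.34 and 0.53. Its pooled SD of 0.28 log2 units compared with 0.10 in the 200 genes nearest in level. The limma interval of Gpihbp1 is therefore narrower than its own spread alone would give.

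Beside Gpihbp1, 14 endothelial marker genes were read, of which 2 were higher, none was lower and the median difference was 0.25 log2 units. Cdh5, the cadherin of endothelial junctions, was higher by 0.41 (SE 0.10, limma adjusted p = 0.00510), and Pecam1, an endothelial adhesion molecule, differed by 0.18 (SE 0.10, adjusted p = 0.182). The summed CPM of the list ran from 721 to 949 in HFD control mice and from 813 to 1122 in IMC-treated mice, and HFD mouse 1 and IMC mouse 6 held the lowest and the highest sum as they did for Gpihbp1. The part of these markers in the difference of Gpihbp1 was not tested. In bulk tissue, a change in the number of cells of a type and a change in RNA per cell cannot be told apart.

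Within each mouse the inhibitor and the anchor were set against the enzyme, so that the scaling of the library cancelled. Angptl4 minus Lpl averaged -3.76 log2 units in HFD control mice (SD 0.10) and -3.59 in IMC-treated mice (SD 0.16). The change of 0.17 did not pass after adjustment over 7 pairs of genes (two-sided exact permutation p = 0.0584, Benjamini-Hochberg adjusted p = 0.0818), and the groups overlapped. Gpihbp1 minus Lpl changed by 0.27, again with overlap (exact permutation p = 0.108, adjusted p = 0.126). The first of these passed only without IMC mouse 2, where the change was 0.22 (adjusted p = 0.0139).

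The membrane proteins came next. Cd36 (gene ID 12491, chr5:17781690-17888959), the scavenger receptor that takes up long-chain fatty acids in adipocytes, macrophages and capillary endothelium, had 12.83, 12.68, 12.78, 12.65 and 12.58 log2 CPM in HFD control mice. The IMC-treated mice had a lowest value of 12.64, a median of 12.75 and a highest value of 12.80 log2 CPM. The treated mice lay wholly inside the range of the controls. The difference was 0.03 log2 units (SE 0.10), a ratio of 1.02 with a 95% interval of 0.879 to 1.19 (limma adjusted p = 0.825), at 144077 reads or more in every mouse.

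Slc27a1 (gene ID 26457, chr8:71568728-71587307), a transport protein with acyl-CoA synthetase activity found in fat and muscle, stood at 8.48, 8.72, 8.77, 8.80 and 8.73 log2 CPM in the controls and between 8.61 and 8.87, with a median of 8.75, in the treated mice. HFD mouse 1 was low, and the other mice of both groups were mixed. The difference was 0.05 log2 units (SE 0.07, 95% interval -0.09 to 0.19, limma adjusted p = 0.574). Slc27a4 (gene ID 26569, chr2:29802634-29817522), a related transport protein of wide distribution, had 5.99, 6.00, 6.00, 5.92 and 5.90 log2 CPM in the controls and between 5.89 and 6.10, with a median of 6.01, in the treated mice. Its groups overlapped too, with a difference of 0.05 log2 units (SE 0.05, 95% interval -0.05 to 0.15, limma adjusted p = 0.415). Slc27a1 minus Slc27a4 averaged 2.74 log2 units in both groups (exact permutation p = 0.991, adjusted p = 0.991).

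Acsl1 (gene ID 14081, chr8:46471037-46536051), which encodes the main long-chain acyl-CoA synthetase of adipocytes, had the smallest adjusted p of the 10 genes. It was at 9.88, 10.38, 10.11, 10.21 and 10.56 log2 CPM in HFD control mice. The treated mice ran from 10.97 through a median of 11.13 to 11.39 log2 CPM. The lowest treated mouse was 0.41 log2 units above the highest control. Acsl1 rose by 0.91 log2 units (SE 0.11), a ratio of 1.88 (95% interval 1.59 to 2.23, limma adjusted p = 8.60e-05, exact permutation p = 0.00216). In reads, it went from between 20931 and 35447 per control mouse to between 44745 and 65009 per treated mouse. Leaving out single mice kept the difference between 0.82 and 0.99. In RefSeq, the span of Acsl1 from start to end shares 14 bases with that of another gene, Gm31050.

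The activating enzyme was then set against the membrane receptor within mice. Acsl1 minus Cd36 was -2.95, -2.30, -2.67, -2.44 and -2.02 log2 units in HFD control mice and ran from -1.78 to -1.26 in IMC-treated mice, without overlap. It rose by 0.88 (exact permutation p = 0.00216, adjusted p = 0.00505 over 7 pairs).

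The sequences before the annotated starts of this pair are shown because Acsl1 was called and Cd36 was not. RefSeq gave such windows for 5 of the 10 genes, Slc27a4, Fabp3, Cd36, Acsl1 and Slc27a1, with 8 starts in all, and the 250 bases before each start were searched on both strands. The motifs were the direct repeat AGGTCANAGGTCA, which is the consensus bound by PPARG with its partner RXR, the AGGTCA unit of that repeat, CCAAT and TATAAA. The windows below are from GRCm38.p6, written 5′ to 3′ on the strand of the gene, with matches in capitals. They come from chr8:46470787-46471036 (plus strand) and chr8:46490716-46490965 (plus strand) for Acsl1 and from chr5:17835897-17836146 (minus strand) for an inner start of Cd36.
Acsl1, first start: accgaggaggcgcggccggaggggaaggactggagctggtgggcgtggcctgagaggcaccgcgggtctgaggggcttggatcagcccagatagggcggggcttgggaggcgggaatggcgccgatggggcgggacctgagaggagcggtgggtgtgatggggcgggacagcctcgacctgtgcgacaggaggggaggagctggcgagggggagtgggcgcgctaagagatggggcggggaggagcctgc
Acsl1, second start: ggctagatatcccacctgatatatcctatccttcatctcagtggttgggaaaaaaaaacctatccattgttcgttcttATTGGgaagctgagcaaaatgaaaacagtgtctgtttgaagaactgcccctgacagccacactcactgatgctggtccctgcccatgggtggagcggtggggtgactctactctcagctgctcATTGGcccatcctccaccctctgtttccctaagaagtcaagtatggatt
Cd36, inner start: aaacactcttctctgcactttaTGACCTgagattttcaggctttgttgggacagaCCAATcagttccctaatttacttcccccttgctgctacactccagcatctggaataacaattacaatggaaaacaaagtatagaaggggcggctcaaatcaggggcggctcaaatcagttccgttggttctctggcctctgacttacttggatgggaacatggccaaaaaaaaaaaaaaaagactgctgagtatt

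No window of the 5 genes held the full repeat, which was present in 0.0335% of the 32851 windows of all genes. The Cd36 window held 1 AGGTCA unit on the opposite strand, 228 bases before the start, and a CCAAT 195 bases before it. The first Acsl1 window, with 72.0% G and C, held none of the 4 motifs, and the second held CCAAT at 2 places on the opposite strand, 172 and 49 bases before the start. Among all windows 14.0% held the AGGTCA unit, 33.8% held CCAAT and 12.4% held TATAAA. The AGGTCA unit also lies inside the full repeat, so those counts are not separate. Reads were counted per gene, so the starts of Acsl1 could not be measured apart.

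**Figure D2:**
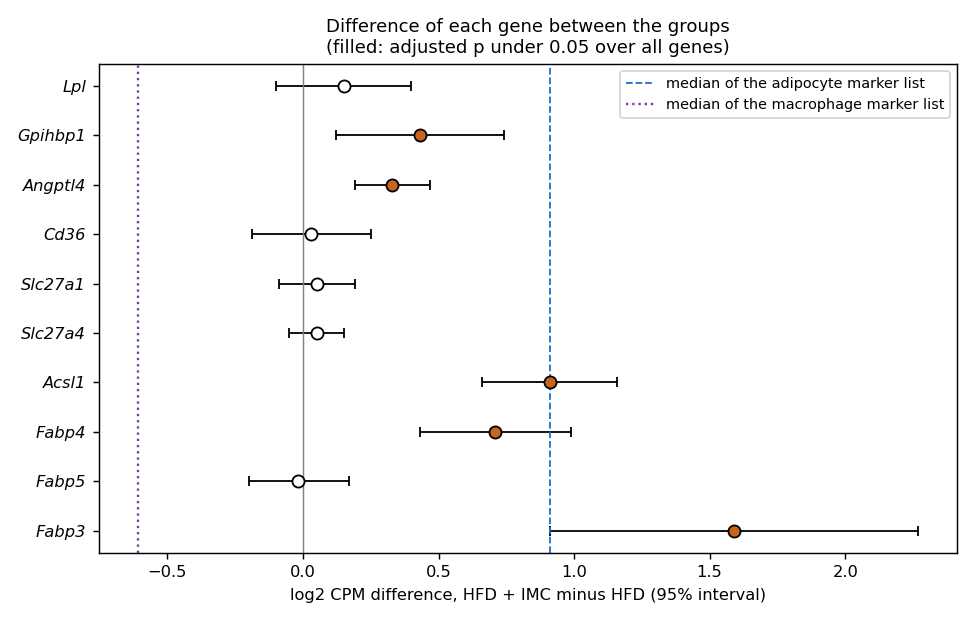
The plot of differences shows the log2 CPM difference, HFD + IMC minus HFD (x axis), for each of the 10 genes with its 95% interval, filled where the limma adjusted p was under 0.05. Acsl1 at 0.91 lies at the median of the adipocyte markers (dashed line, 0.91), Fabp3 at 1.59 lies above it, and Cd36, Slc27a1, Slc27a4 and Fabp5 lie within 0.05 of 0, while the macrophage marker median (dotted line) is at -0.61.

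The binding proteins were described last. Fabp4 (gene ID 11770, chr3:10204342-10208616), the adipocyte FABP, was at 12.01, 12.40, 12.10, 12.27 and 12.48 log2 CPM in HFD control mice. It ran from 12.72 through a median of 12.96 to 13.15 log2 CPM in IMC-treated mice. The groups were separated by 0.24 log2 units. Fabp4 rose by 0.71 log2 units (SE 0.13), a ratio of 1.64 (95% interval 1.35 to 1.99, limma adjusted p = 0.000961, exact permutation p = 0.00216). It took between 0.410% and 0.578% of the reads on listed genes in control mice and between 0.670% and 0.901% in treated mice.

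Fabp5 (gene ID 16592, chr3:10012585-10016610) lies on the same chromosome, with 187731 bases between the end of Fabp5 and the start of Fabp4. It was measured at 7.25, 6.87, 6.92, 6.75 and 6.96 log2 CPM in the controls and between 6.70 and 7.12, with a median of 6.95, in the treated mice. HFD mouse 1 was the highest of all 11 mice for Fabp5 and the lowest for Fabp4. The groups overlapped fully, with a difference of -0.02 log2 units (SE 0.09, 95% interval -0.20 to 0.17, limma adjusted p = 0.885). Fabp5 minus Fabp4 within a mouse was -4.76, -5.53, -5.17, -5.51 and -5.52 log2 units in the controls and from -6.20 to -5.72 in the treated mice, a change of -0.73 log2 units towards Fabp4 without overlap (exact permutation p = 0.00216, adjusted p = 0.00505). By the difference of medians the change was -0.57 and was not called (exact permutation test, adjusted p = 0.0727).

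Fabp3 (gene ID 14077, chr4:130308738-130315463), the heart and muscle FABP, showed the highest ratio of the 10 genes at the lowest level. Its reads per library were 16, 14, 12, 8 and 24 in HFD control mice and 43, 74, 32, 31, 32 and 61 in IMC-treated mice. On the log2 CPM scale these were -0.45, -0.71, -0.96, -1.53 and 0.05 in the controls and, in the treated mice, a lowest value of 0.33, a median of 0.72 and a highest of 1.71. All treated mice were above all controls. Fabp3 rose by 1.59 log2 units (SE 0.31), a ratio of 3.01 (95% interval 1.88 to 4.81, limma adjusted p = 0.00161, exact permutation p = 0.00216), and it was 10th of 12787 genes by log2 difference. Because the fold of a gene with so few reads depends on the constant added before the logarithm, it was also computed with 2 reads added, which gave 1.47. HFD mouse 4, with 8 reads, and IMC mouse 2, with 74, lay farthest apart. A gene was listed only at 1 CPM or more in at least 1 mouse. Of the controls only HFD mouse 5 reached that level for Fabp3, so its place among all genes is subject to this filter.

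The span of Fabp3 from start to end shares 81 bases with that of Zcchc17 on the other strand, and the strand setting of the count was not given. Zcchc17 was at 5.04 ± 0.06 log2 CPM in controls and 5.14 ± 0.07 in treated mice (SD, n = 5 and n = 6), a difference of 0.10 (SE 0.05, limma adjusted p = 0.118). Fabp3 and Fabp5 also have near-identical copies elsewhere in the genome, Fabp3-ps1 and Fabp5l2. Reads matching a gene and its copy could have been left out of the count, and the levels of Fabp3 and Fabp5 are uncertain to that extent.

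Set against the other binding proteins, Fabp3 minus Fabp5 rose by 1.61 log2 units within mice, without overlap (exact permutation p = 0.00216, adjusted p = 0.00505), but the difference of medians, 1.53, was not called (adjusted p = 0.0606). Fabp3 minus Fabp4 rose by 0.87 with overlap (exact permutation p = 0.00866, adjusted p = 0.0152), but without HFD mouse 4 this change was 0.67 and was no longer called (adjusted p = 0.0583). Because Fabp3 is known as a muscle gene, the striated muscle markers stand beside it. Of 19 such genes 8 were listed, 5 were higher and none was lower, with a median difference of 1.08 log2 units. Their summed CPM was 31.2 to 47.4 in controls and 86.8 to 127 in treated mice. The table holds genes at 1 CPM or more in at least 1 mouse. Myh2, 1 of the 5, stayed below 1 CPM in every control (highest -0.64 log2 CPM). It was therefore listed only through treated mice and could only count as higher. Acta1, skeletal muscle actin, was higher by 1.23 (SE 0.15, limma adjusted p = 6.07e-05), while Ckm, muscle creatine kinase, was not analysed here. Tnni2, Actn3 and Ryr1 were not called. The part of muscle cells in the level of Fabp3 was not tested.

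**Figure D3:**
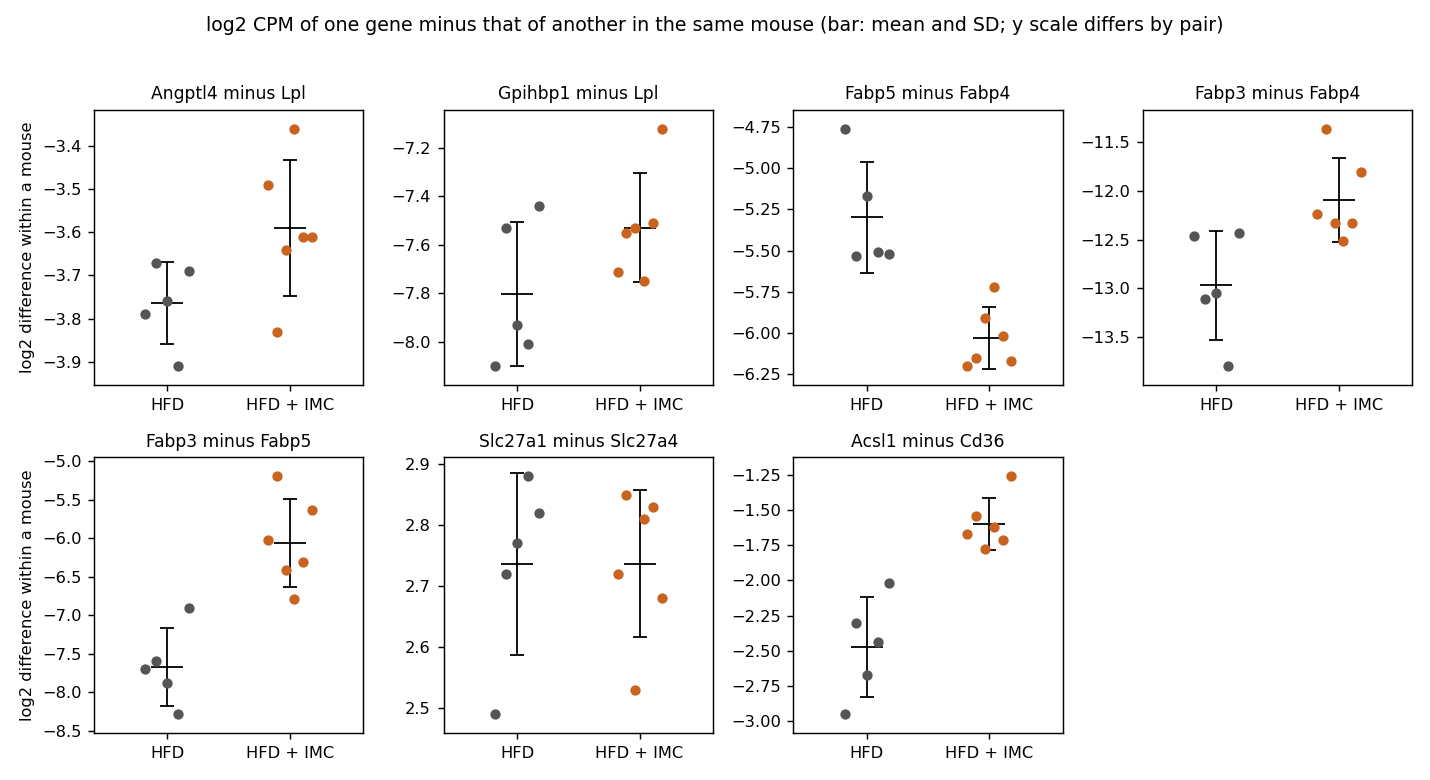
The plot of pairs shows the log2 CPM of one gene minus that of another in the same mouse (y axis, a separate scale for each pair), with 1 point per mouse and the mean and SD as bars. Fabp5 minus Fabp4 is lower and Fabp3 minus Fabp5 and Acsl1 minus Cd36 are higher in IMC-treated mice without overlap, whereas Slc27a1 minus Slc27a4 averages 2.74 in both groups.

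Markers of the cell types of adipose tissue were read beside these genes. All 15 adipocyte markers were higher in IMC-treated mice, with a median difference of 0.91 log2 units and a summed CPM of 8144 to 12392 in controls and 18325 to 21031 in treated mice. Adipoq, which encodes adiponectin, was higher by 1.18 (SE 0.15) and Plin1, a coat protein of the lipid droplet, by 0.84 (SE 0.11), at mean levels of 9.74 and 8.88 log2 CPM in controls, so the tissue expressed its defining genes. Of 18 macrophage markers 17 were listed, none was higher and 14 were lower, with a median of -0.61 and a summed CPM of 19945 to 25825 in controls and 10928 to 16397 in treated mice. Adgre1 fell by 0.58 (SE 0.14) and Cd68 fell by 0.61 (SE 0.10), both being marker genes of macrophages. Among the 10 genes, Acsl1 at 0.91 was at the median of the adipocyte list, and Fabp4 at 0.71 lay below it. Lpl at 0.15 and Cd36 at 0.03 lay farther below, although adipocytes express all of them. Macrophages are known to express Lpl, Cd36, Fabp4 and Fabp5 as well. The part of the cell type markers in each of these differences was not tested.

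Of 10 progenitor markers 7 were lower and none was higher, with a median of -0.32, but the first named, Pdgfra (-0.26, SE 0.11, limma adjusted p = 0.0876) and Dpp4 (-0.12, SE 0.18, adjusted p = 0.636), did not pass. Of 4 listed mesothelial markers 1 was lower, and Upk3b differed by -0.42 (SE 0.26, adjusted p = 0.226). Of 8 listed brown and beige markers 3 were higher, among them Cidea by 1.15 (SE 0.32, limma adjusted p = 0.0118), while Ucp1 and Msln were not analysed here. Dio2, Elovl3, Cox7a1, Tmem26 and Ebf2 were not called. Summed CPM of the brown and beige list was 53.8 to 61.8 in controls and 62.7 to 82.4 in treated mice. That of the progenitor list was 4792 to 5777 in controls and 3569 to 4405 in treated mice, and that of the mesothelial list overlapped. All counts of markers called stand against 40.9% of all genes called in either direction. No lymphocyte marker (0 of 7) and no erythroid marker (0 of 5) was listed, so those cells could not be checked.

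Inside a group, different mice were high or low for different genes. HFD mouse 1 was the lowest control for 5 of them, Lpl, Gpihbp1, Slc27a1, Acsl1 and Fabp4, and the highest control for Cd36 and Fabp5. It also had the lowest adipocyte sum, 8144 CPM, and the highest macrophage sum, 25825 CPM, of the 11 mice. HFD mouse 5 was the highest control for Gpihbp1, Angptl4, Acsl1, Fabp4 and Fabp3 and the lowest for Cd36 and Slc27a4, with the highest adipocyte sum of the controls, 12392 CPM. Among treated mice, IMC mouse 1 was the highest for both Cd36 and Fabp4, IMC mouse 4 was the lowest for Lpl, Gpihbp1, Slc27a4 and Fabp3, and IMC mouse 6 was the highest for Gpihbp1, Slc27a4 and Acsl1 and the lowest for Cd36. Pooled SD between mice ran from 0.06 log2 units for Lpl to 0.57 for Fabp3, which had the fewest reads.

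**Figure D4:**
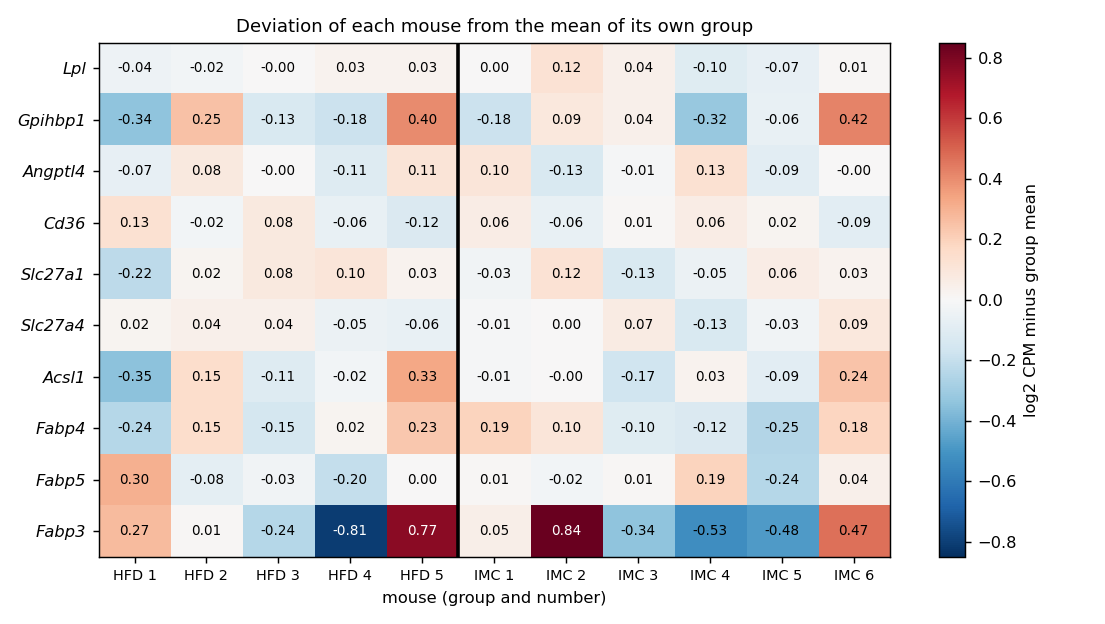
The map of deviations shows, for each of the 10 genes (vertical axis) and each mouse (horizontal axis), log2 CPM minus the mean of the mouse's own group, red above and blue below. Fabp3 spreads most, from -0.81 in HFD mouse 4 to 0.84 in IMC mouse 2, and HFD mouse 1 is at -0.35 for Acsl1 and -0.24 for Fabp4 but at 0.13 for Cd36 and 0.30 for Fabp5.

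The gene of the whole table with the most similar profile was sought for each of the 10, as the smallest root mean square difference of centred log2 CPM over the 11 mice. For Acsl1 it was Dmpk, with a difference of 0.04 log2 units against a spread of 0.49 in Acsl1 itself, and for Fabp4 it was Acyp2, at 0.06 against 0.39. For Gpihbp1 it was Ccm2l, at 0.07 against 0.33, and for Angptl4 it was Rpe, at 0.05 against 0.18. The nearest gene to Fabp3, Kcnh2, was 0.35 away against a spread of 0.94. For the genes not called by limma the distances were small, but so were the genes' own spreads. Lpl and Med22 were 0.04 apart against a spread of 0.09 in Lpl, and Cd36 and Ufsp2 0.03 against 0.08. Slc27a1 and Cep70 were 0.05 apart against 0.10, Slc27a4 and Pja1 0.04 against 0.07, and Fabp5 and Cacybp 0.08 against 0.14. Med22 was itself called higher with IMC, by 0.13 (limma adjusted p = 0.0210). Among the 10 genes, Acsl1 and Fabp4 were each other's nearest, 0.15 log2 units apart. So were Lpl and Slc27a4, neither of them called, but their distance of 0.08 was no smaller than the spread of 0.07 in Slc27a4. Profiles were centred over all 11 mice, so a similar difference between the groups counts towards likeness. Dmpk differed between the groups by 0.87 and Acyp2 by 0.66. Among all genes, Fabp4 was only the 115th nearest to Acsl1 and Acsl1 the 279th nearest to Fabp4.

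The remaining genes of the pathway were read from 5 lists. Proteins that handle LPL and lipoproteins (21 of 24 genes listed) gave 8 higher and 2 lower, with a median of 0.09 log2 units. The 4 with the smallest p were all higher. Sort1, a sorting receptor, rose by 0.59 (SE 0.05, limma adjusted p = 2.67e-05), Vldlr, a lipoprotein receptor, by 0.93 (SE 0.10, adjusted p = 3.50e-05), Apoc1, an apolipoprotein, by 1.40 (SE 0.19, adjusted p = 0.000170), and Hspg2, the heparan sulfate proteoglycan perlecan, by 0.49 (SE 0.10, adjusted p = 0.00195). Summed CPM of this list overlapped between the groups, whereas that of each other pathway list was higher with IMC without overlap.

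Other fatty acid and acyl-CoA binding proteins (9 of 17 listed) gave 5 higher and 1 lower, with a median of 0.19. Scp2, sterol carrier protein, rose by 0.57 (SE 0.06, limma adjusted p = 5.18e-05), Dbi, the acyl-CoA binding protein, by 0.65 (SE 0.09, adjusted p = 0.000177), Acbd4 by 0.56 (SE 0.08, adjusted p = 0.000207) and Rbp4, which carries retinol, by 0.86 (SE 0.19, adjusted p = 0.00286). The 1 that fell was Fabp7, the brain FABP, named after its value was seen, at -0.91 (SE 0.23, limma adjusted p = 0.00632) with overlapping groups. Among the listed genes named Fabp, Fabp4 and Fabp3 thus rose, Fabp7 fell, and Fabp5 and Fabp1, the liver FABP (0.10, limma adjusted p = 0.573), were not called.

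Other transport proteins and acyl-CoA synthetases (13 of 17 listed) gave 5 higher and 2 lower, with a median of 0.24. Those with the smallest p act mostly on short or medium chains, with Acss3 higher by 0.83 (SE 0.09, limma adjusted p = 3.50e-05), Acsf3 by 0.46 (SE 0.08, adjusted p = 0.000940), Acsm5 by 1.11 (SE 0.22, adjusted p = 0.00148) and Acss2, a cytosolic acetyl-CoA synthetase, by 0.46 (SE 0.10, adjusted p = 0.00221). The membrane route (20 of 21 listed) gave 10 higher and 4 lower, with a median of 0.13. Cav1 and Cav2, the caveolins, rose by 0.82 (SE 0.10, limma adjusted p = 5.96e-05) and 0.59 (SE 0.07, adjusted p = 6.53e-05), while Cd9, a tetraspanin, fell by 0.70 (SE 0.07, adjusted p = 3.50e-05) and Kcnn4, a potassium channel, fell by 0.65 (SE 0.08, adjusted p = 6.07e-05).

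Regulators of uptake (24 of 26 listed) gave 16 higher and 3 lower, with a median of 0.35. Pparg, a nuclear receptor that drives adipocyte genes, rose by 0.70 (SE 0.11, limma adjusted p = 0.000292) and its partner Rxra by 0.35 (SE 0.06, adjusted p = 0.000773). Epas1, a hypoxia-inducible factor, rose by 0.49 (SE 0.07, adjusted p = 0.000255) and Vegfa, an endothelial growth factor, by 0.56 (SE 0.10, adjusted p = 0.000847). All of these counts stand against 40.9% of all genes called and a median of -0.03.

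**Figure D5:**
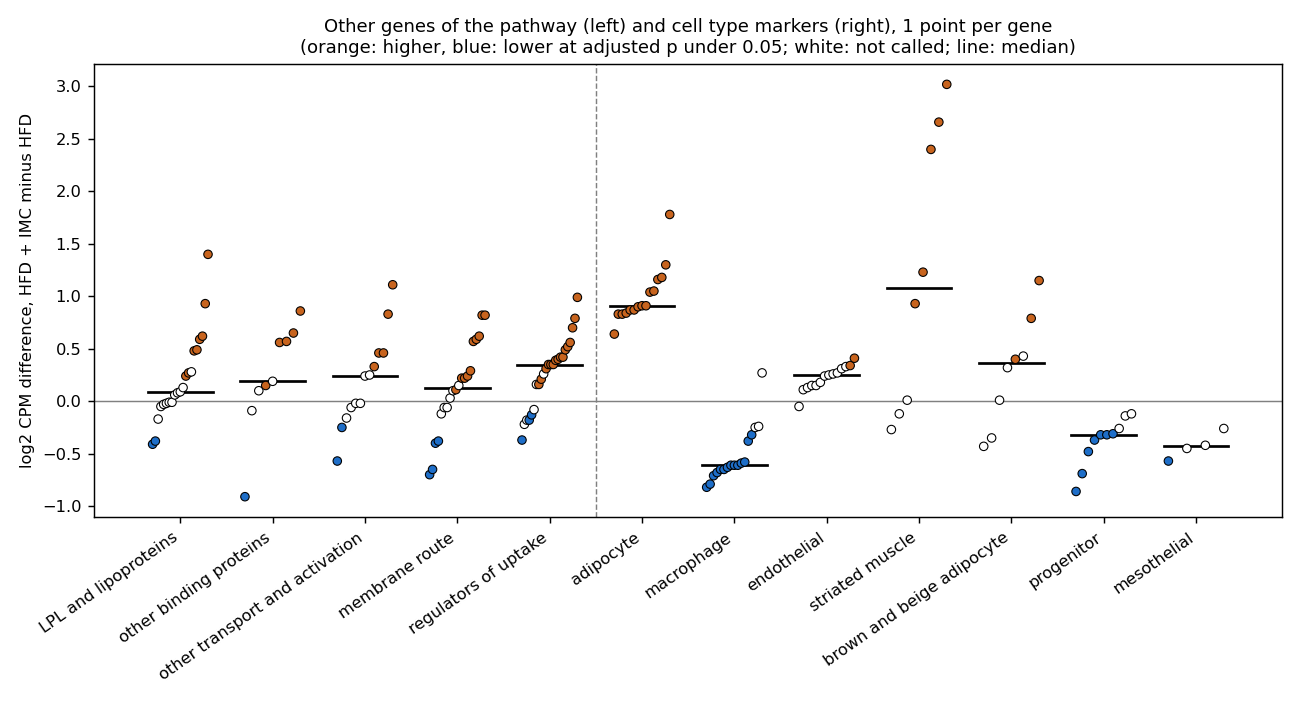
The plot of lists shows the log2 CPM difference, HFD + IMC minus HFD (y axis), of every listed gene of the 5 pathway lists (left of the dashed line) and of the cell type marker lists (right), coloured where the limma adjusted p was under 0.05, with the list median as a line. Pathway medians lie between 0.09 and 0.35, adipocyte markers at 0.91 and macrophage markers at -0.61.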

How the data were processed

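RNA-seq of gonadal WAT from 5 HFD control and 6 IMC-treated mice was used, with groups taken from the sample labels. The authors trimmed reads with Trim Galore, aligned them to mm10 with STAR, counted reads per gene, removed low genes, scaled by the upper quartile and compared groups with edgeR. They deposited log2 CPM per mouse for 12787 genes. The deposited log2 fold changes, likelihood-ratio score, and p-value and FDR columns are the authors' own comparison and were not used. The directional kit is stated, the strand setting of the count is not given in the sources used here.

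Groups were compared with limma 3.58.1 in R 4.3.3 (lmFit and eBayes with trend, group only), with Benjamini-Hochberg adjustment over all 12787 genes and a call at an adjusted p under 0.05. A two-sided exact permutation test over the mice was used for single genes and for 7 within-mouse pairs, with Benjamini-Hochberg adjustment over the 7 pairs. Fold changes are on the scale of log2 CPM with the authors' small added constant. The CPM steps within a mouse gave whole reads (100% of values within 0.05 of a whole number), and libraries held between 22320022 and 25155366 reads on listed genes (two-sided exact permutation p between groups 0.154). Intervals are from limma, whose variance combines a gene's own spread between mice with that of genes at its level. For genes with little spread of their own, such as Lpl and Cd36, they are therefore wider than that spread alone would give. For genes with more spread than others at their level, such as Gpihbp1 and Fabp3, they are narrower. Reads without molecular identifiers are not independent molecules. The recovered reads served for depth and alternatives. Read recovery and the limma step were checked on made-up data in which 200 genes were changed. Alternatives were another filter, limma without trend, robust limma, limma voom on recovered reads, total-count and median-of-ratios scaling, 2 added reads, medians, no length correction, and each mouse left out.

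Coordinates, overlaps and windows before gene starts are from RefSeq on GRCm38.p6 (the build of mm10), and merged exon lengths are from the reference annotation. Named genes are the 10, the 4 genes of each pathway list with the smallest p, the first 2 markers of each marker list, and the gene nearest in profile to each of the 10. Exceptions chosen after their values were seen are Fabp1, Fabp7, Myh2, Tnni2, Actn3, Ryr1 and Zcchc17. The brown and beige markers not called were named in the same way. The genes and lists were chosen with earlier results of these data known, so their counts are descriptions. Python 3.11.15 with numpy 2.4.6, pandas 2.3.3 and matplotlib 3.10.9 was used.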

Additional observations from a re-analysis of the deposited data

Results flagged for a closer look

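In 34 groups of values (each of the 10 genes and 7 pairs in each group), 2 held a mouse far from the rest by Dixon's criterion at 95%, a criterion that chance meets in about 1 of 20 groups. Slc27a1 in HFD mouse 1 was 8.48 log2 CPM, with the other controls between 8.72 and 8.80. Gpihbp1 minus Lpl in IMC mouse 6 was -7.12 log2 units, with the other treated mice between -7.75 and -7.51. Neither Slc27a1 nor this pair was called with all mice, and neither was called with any 1 mouse left out.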

How the results depend on the processing

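The calls of Acsl1, Fabp4, Fabp3 and Angptl4 held under every alternative that gave a value, with differences of 0.82 to 0.99, 0.65 to 0.77, 1.39 to 1.78 and 0.29 to 0.35 log2 units. Cd36, Slc27a1, Slc27a4 and Fabp5 were called under none. Lpl was called in limma without trend (0.15, adjusted p = 0.0242) and under no other alternative (0.12 to 0.17). With each mouse left out, Gpihbp1 ran from 0.34 to 0.53 and lost its call in 6 of 11 fits, Angptl4 minus Lpl ran from 0.13 to 0.22 and was called only without IMC mouse 2 (adjusted p = 0.0139), and Fabp3 minus Fabp4 ran from 0.67 to 1.01 and lost its call only without HFD mouse 4. By the difference of medians, Fabp5 minus Fabp4 (-0.57, adjusted p = 0.0727) and Fabp3 minus Fabp5 (1.53, adjusted p = 0.0606) were no longer called. The cause was not tested. The number of the 10 genes called ran from 4 to 6, and that of all genes from 4299 to 5464. Without length correction 5 of the 10 genes kept their place in the order of levels. Fabp3 had no value where 1 CPM was required in every mouse. Total-count and median-of-ratios scaling moved the median of all genes by -0.03 and 0.01 log2 units. Depth limits Fabp3 most, at 8 to 74 reads. No paired analysis was possible because the labels give the groups no shared mouse number or other pairing.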
